A study of Mus musculus with 4 samples.

Results

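CXCL9, CXCL10, CXCL16 and their receptors CXCR3 and CXCR6 were followed in tumour-infiltrating leukocytes by single-cell RNA-seq. The 5 genes (Cxcl9, Cxcl10, Cxcl16, Cxcr3 and Cxcr6) were chosen by name as the ligand and receptor pairs of T cell recruitment, from the 33696 genes in the count matrices. Live CD45+ cells were sorted from subcutaneous KPC tumours of male C57BL/6NHsd mice aged 8 to 10 weeks and resected on day 14. KPC is a pancreatic tumour line derived from mice in which Pdx1-Cre, active in the pancreas, switches on tumour alleles that include Trp53 LSL.R172H/+, and all groups carried the same line in the flank rather than in the pancreas. The 4 groups were Untreated, STING agonist, LTbR agonist, and STING and LTbR agonist (combination). The STING agonist was ADU-S100, injected once into the tumour at 2 µg. The LTbR agonist was the antibody 4H8 against the lymphotoxin-β receptor, given intraperitoneally at 100 µg 4 times. The combination group received both agents at the same doses. In each group 10 tumours were pooled into 1 library, so there were 1 library per group, no replicate and no test between groups. Groups of 4 values follow the order Untreated, STING agonist, LTbR agonist and combination.

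CXCL9 and CXCL10 are small secreted chemokines that interferons induce in myeloid and other cells, and they attract cells that carry CXCR3, a receptor best known on activated T cells and NK cells. CXCL16 is made as a transmembrane protein on macrophages and dendritic cells, from which a soluble chemokine can be shed, and it binds CXCR6. CXCR6 is known from effector, tissue-resident and innate-like T cells, and in tumours it keeps such cells near dendritic cells that display CXCL16.

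The Cxcl9 and Cxcl10 promoters are printed because both genes had high levels, and Cxcl10 its highest, in a myeloid subcluster led by interferon-response genes, described further on. Both were read from RefSeq GRCm38.p6 on the minus strand, 5′ to 3′, as the 250 bases before each start. Capitals mark matches on either strand to the core of the interferon-stimulated response element (GAAANNGAA) or to a kappa-B site (GGGNNNTTC).
Cxcl9, chr5:92328080-92328329: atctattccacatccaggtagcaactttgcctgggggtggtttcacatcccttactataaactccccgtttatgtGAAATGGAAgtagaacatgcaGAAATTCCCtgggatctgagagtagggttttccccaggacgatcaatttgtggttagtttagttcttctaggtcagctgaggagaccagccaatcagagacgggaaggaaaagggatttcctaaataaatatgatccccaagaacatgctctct
Cxcl10, chr5:92348890-92349139: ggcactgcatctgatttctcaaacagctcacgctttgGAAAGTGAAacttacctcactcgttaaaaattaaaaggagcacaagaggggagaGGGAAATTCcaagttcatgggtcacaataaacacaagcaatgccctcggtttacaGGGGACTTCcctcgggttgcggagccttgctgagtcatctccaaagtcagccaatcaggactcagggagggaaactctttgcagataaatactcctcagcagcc
The Cxcl9 window held 1 match to the interferon element, at -175 to -167 from the start, and 1 kappa-B match, at -154 to -146. The Cxcl10 window held 1 match to the interferon element, at -213 to -205, and 2 kappa-B matches, at -159 to -151 and -104 to -96. Neither window matched the gamma-activated site TTCNNNGAA. Of 32841 promoter windows of the same length, 7.13% held the interferon element core, 11.8% a kappa-B match and 7.02% the gamma-activated site. The Cxcr3 window (chrX:101734148-101734397, minus strand) held 1 kappa-B match and the Cxcr6 window (chr9:123806227-123806476, plus strand) none of the 3 motifs. Cxcl16 had no promoter entry. These matches are letters in a window and were not tested as binding sites.

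Cells that passed the quality limits and a doublet filter numbered 7516, 13441, 13225 and 14666. Leukocytes made up 7358, 13228, 13024 and 14388 of them. A UMI is a tag that counts each captured RNA molecule once. Median UMIs per leukocyte were 4582, 3111.5, 3694 and 2176.5, lowest in the combination. Levels are therefore given as CPM, the UMIs of a gene per 1e6 UMIs of the cells summed. Pairs of libraries shared 30 to 69 cell barcodes among kept cells. Neutrophils were 6.67%, 40.0%, 7.42% and 9.05% of leukocytes, and T cells 18.9%, 4.48%, 15.8% and 11.5%. Cell classes were named from marker genes. Ptprc, which codes for CD45, was 1071 to 1311 CPM in the macrophage or monocyte class and 46.2 to 102 CPM in a class of non-leukocytes that was left out. The T cell markers summed to 4205 to 4922 CPM in the T class. Over all leukocytes there were 91721 UMIs of Cxcl9 (ENSMUSG00000029417), 56978 of Cxcl10 (ENSMUSG00000034855), 96234 of Cxcl16 (ENSMUSG00000018920), 1979 of Cxcr3 (ENSMUSG00000050232) and 5894 of Cxcr6 (ENSMUSG00000048521). The 95% intervals below reflect the counting of UMIs alone, and the spread between animals or libraries is not in them.

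Cxcl9, the CXCR3 ligand most tied to interferon-γ, came mainly from macrophages and monocytes, which held 93.2%, 90.1%, 92.5% and 91.1% of its leukocyte UMIs. Its level in that class was 732, 557, 519 and 588 CPM, highest in the Untreated library and lowest with the LTbR agonist. The log2 ratio to Untreated was -0.39 with the STING agonist (95% interval -0.42 to -0.37), -0.50 with the LTbR agonist (-0.52 to -0.47) and -0.31 with the combination (-0.34 to -0.29). Dendritic cells were next with 228, 324, 229 and 296 CPM and held 4.74% to 5.09% of the UMIs. The order of Cxcl9 levels, by the median over the 4 libraries, then ran from neutrophils through B and T cells to NK cells. Macrophages and dendritic cells did not overlap each other or the neutrophils, while the ranges of neutrophils, B, T and NK cells overlapped with the next class in the order. T cells, taken as the background class for the ligands, had 10.0 to 22.8 CPM of Cxcl9, with the 13 macrophage markers there at 852 to 1289 CPM in sum.

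Cxcl10, the other CXCR3 ligand, came mainly from macrophages and monocytes, which held 87.2%, 74.2%, 88.4% and 86.6% of its leukocyte UMIs. Its level in macrophages and monocytes was 315, 349, 362 and 275 CPM. The log2 ratio was 0.15 with the STING agonist (0.11 to 0.18), 0.20 with the LTbR agonist (0.16 to 0.24) and -0.20 with the combination (-0.24 to -0.15), so the library that received both agonists was the lowest and those with a single agonist the highest. In neutrophils the level was 456, 321, 281 and 373 CPM, and this range overlapped that of macrophages. The neutrophil log2 ratios were -0.51 (-0.65 to -0.36), -0.70 (-0.89 to -0.51) and -0.29 (-0.47 to -0.11), so the level per neutrophil UMI was highest in Untreated. Dendritic cells had 96.3, 179, 134 and 111 CPM, and T cells 37.9 to 49.7 CPM. Only 8.76% to 11.2% of neutrophils had a Cxcl10 UMI, with 5.04 to 8.08 UMIs per such cell.

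In the STING agonist library, where neutrophils were most frequent, they held 3919 of 20633 Cxcl10 UMIs, or 19.0%. The neutrophil share of Cxcl10 UMIs was 4.01% in Untreated, 3.01% with the LTbR agonist and 6.01% with the combination. The 13 macrophage markers summed to 497 to 936 CPM in neutrophils, against 13040 to 16964 CPM in macrophages. Untreated neutrophils held 419 Cxcl10 and 53 Cxcl9 UMIs, whereas Untreated macrophages held 9122 and 21178. The part of macrophage RNA in the neutrophil Cxcl10 was not tested. Over all leukocytes Cxcl10 was 240, 309, 266 and 214 CPM, and the STING agonist ratio of 0.37 became 0.17 when the class shares of the Untreated library were held fixed.

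Cxcl16, the CXCR6 ligand, was found in most macrophages and came from macrophages and dendritic cells. Its level in macrophages and monocytes was 592, 625, 553 and 558 CPM, and in dendritic cells 487, 637, 586 and 518 CPM. These ranges overlapped, and neutrophils, T, NK and B cells lay at or below 48.5 CPM. A Cxcl16 UMI was found in 74.6%, 75.3%, 65.6% and 57.9% of macrophages, against 2.87% to 5.60% of T cells. With each cell thinned, by a random draw, to 1000 UMIs the macrophage shares were 37.7%, 39.4%, 35.1% and 35.4%, so most of the gap between libraries in the unthinned shares was not seen at equal depth. Cxcl9 was found in 21.7%, 16.5%, 16.3% and 20.7% of thinned macrophages, and Cxcl10 in 11.9%, 11.1%, 12.5% and 10.7%. Thinning left out 183, 276, 456 and 1047 macrophages below that depth, and the thinned background in T cells was at most 2.75% for any ligand. Median UMIs per cell were 6493.5, 7039, 4704.5 and 2835 in macrophages and 3409, 3755, 2928 and 1693 in T cells.

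**Figure D1:**
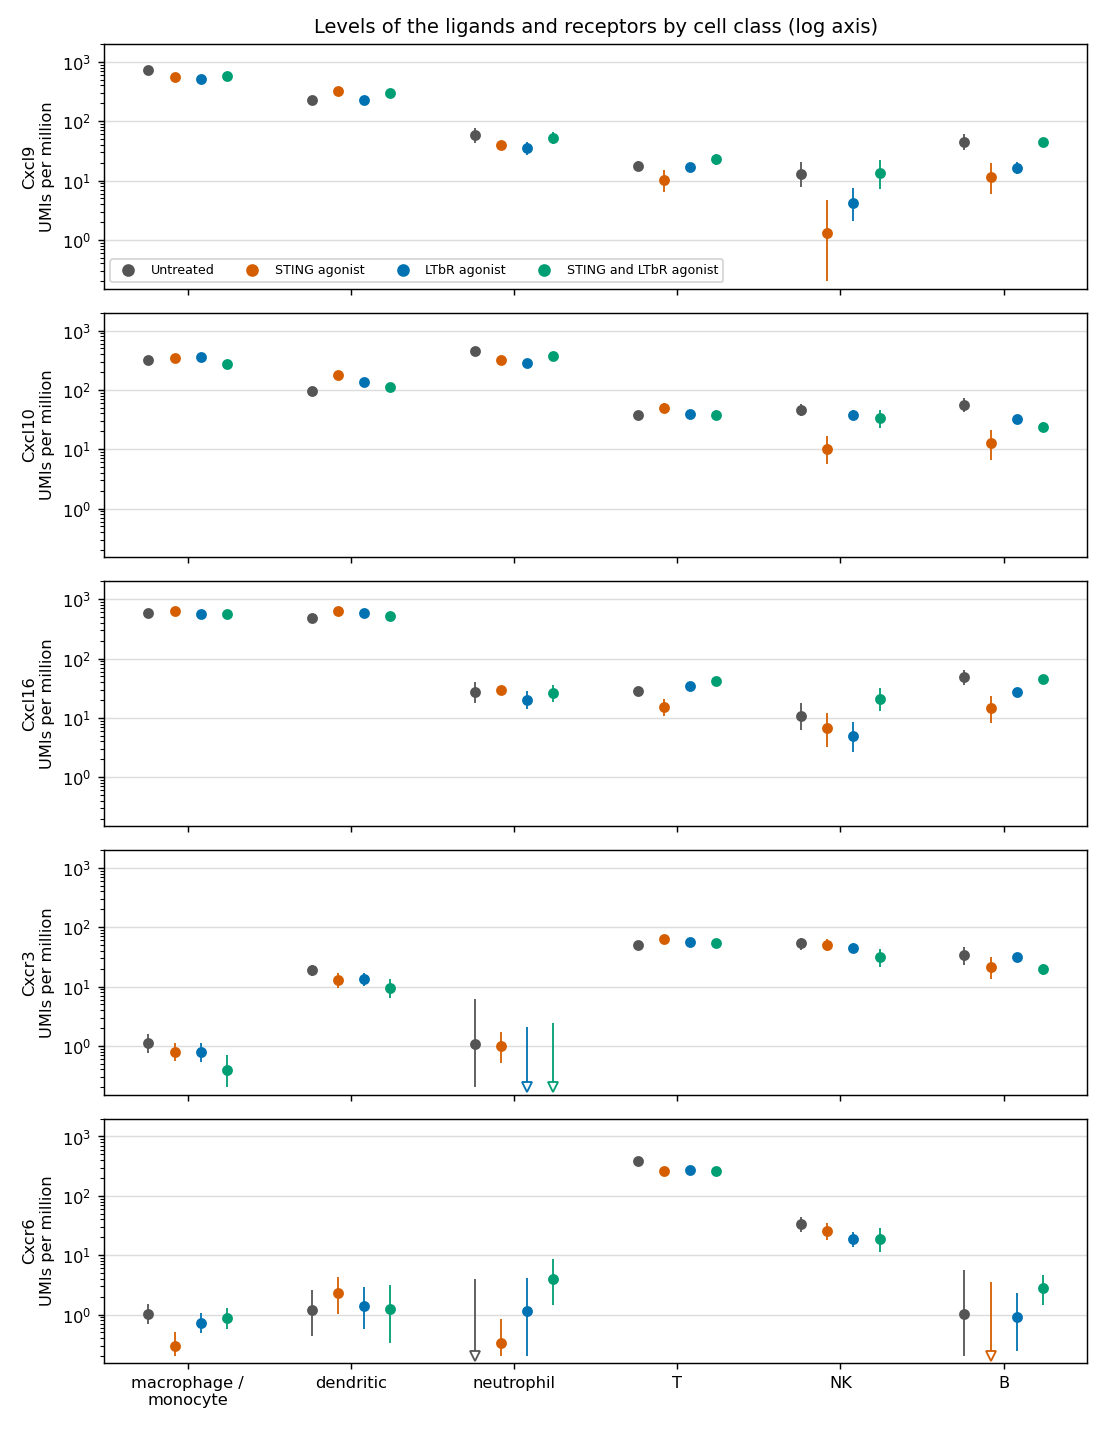
Levels of Cxcl9, Cxcl10, Cxcl16, Cxcr3 and Cxcr6 (CPM, log axis) in 6 leukocyte classes, with 1 point per library and bars for exact 95% Poisson intervals; open triangles mark libraries with 0 UMIs. The ligands were highest in macrophages or monocytes, dendritic cells and, for Cxcl10, neutrophils (281 to 456 CPM), while Cxcr6 stood at 263 to 385 CPM in T cells and at most 33.4 CPM elsewhere.

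**Figure D2:**
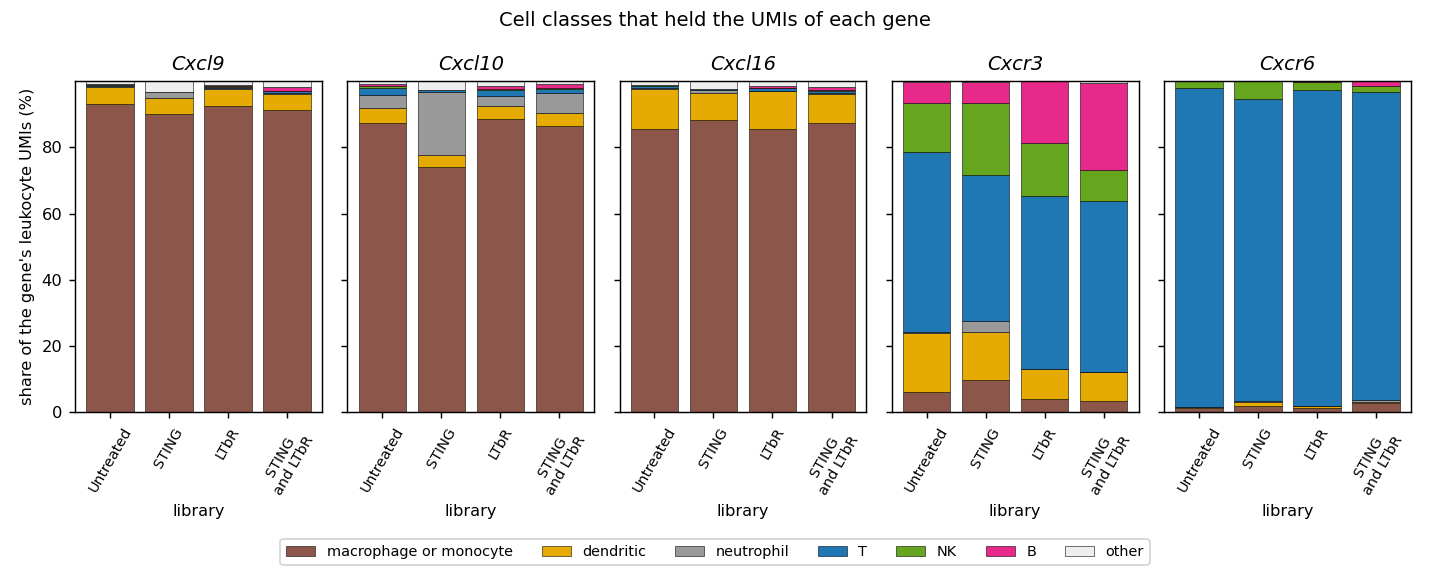
Share of the leukocyte UMIs of each gene held by each cell class (percent, stacked bars, 1 bar per library). Macrophages or monocytes held most ligand UMIs in every library, neutrophils held 19.0% of Cxcl10 in the STING agonist library, and T cells held 91.0% to 96.2% of Cxcr6.

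Subclusters were found by clustering each class again on its own, and each is called by its leading genes where its markers gave no name. Within macrophages and monocytes the CXCR3 ligands were concentrated in particular subclusters, while the 5 genes themselves had been left out of the clustering. A subcluster of 951 cells led by Ifit1bl1, Cmpk2 and Ifit3, interferon-induced genes, had the highest Cxcl10. Its Cxcl10 level was 1938, 2671, 2807 and 2056 CPM and its Cxcl9 level 1416, 1791, 1319 and 1677 CPM. It made up 4.88%, 2.001%, 5.11% and 3.06% of the class, so it was the smallest share with the STING agonist although both ligands there exceeded the Untreated level. Cxcl16 in the same cells was 481 to 657 CPM, within 1.5 times of the class as a whole.

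The highest Cxcl9 was in a subcluster of 471 cells led by Sema7a, Zfp366 and Ccr7, at 3351, 2579, 2290 and 2321 CPM. Its top genes included the dendritic markers Ccr7, Clec9a and Ccl22 and no marker of a macrophage subset, and it stayed unnamed. Over its cells the macrophage or monocyte markers summed to 7255 CPM and the dendritic markers to 378 CPM. In the dendritic class the dendritic markers summed to 3129 to 3961 CPM. C1q-high macrophages, marked by complement C1q, also had much Cxcl9, at 1126, 1141, 837 and 1138 CPM. The larger C1q-high subcluster, led by Ch25h, had 1249, 1291, 1230 and 1254 CPM, nearly flat over the libraries, and made up 19.7%, 9.64%, 7.30% and 8.48% of macrophages. The smaller, led by Cd163, had 482, 238, 310 and 650 CPM and made up 5.71%, 3.64%, 9.58% and 3.27%, its largest share with the LTbR agonist. Monocytes had 135, 80.8, 116 and 59.3 CPM. When the shares of all macrophage subclusters were held fixed at those of the Untreated library, the Cxcl9 ratios in macrophages became 0.05 with the STING agonist, -0.18 with the LTbR agonist and -0.06 with the combination. The part of any single subcluster in the lower Cxcl9 of the treated libraries was not tested. The Cxcl10 ratios kept their directions under the same fixed shares, at 0.27, 0.17 and -0.14.

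**Figure D3:**
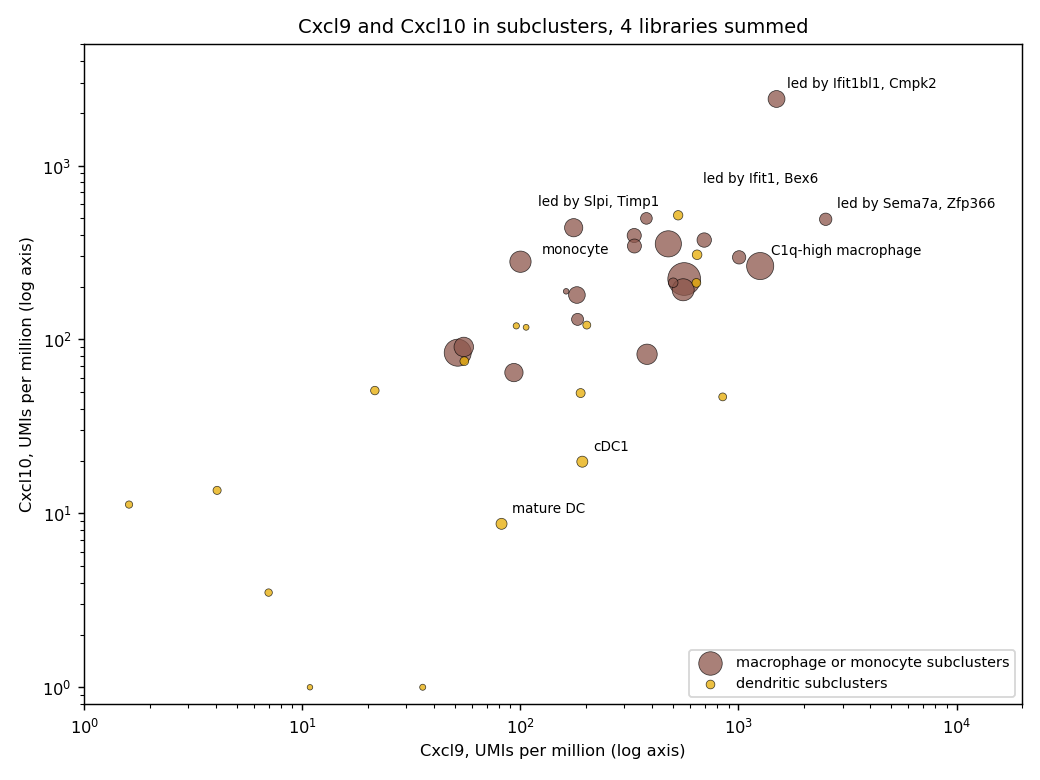
Cxcl9 against Cxcl10 (CPM, both axes log) in subclusters of macrophages or monocytes and of dendritic cells, the 4 libraries summed; marker area grows with the number of cells, and values under 1 are drawn at 1. The subcluster led by Ifit1bl1 was highest for Cxcl10 (2414 CPM) and the subcluster led by Sema7a for Cxcl9 (2511 CPM).

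In the dendritic class as a whole the 3 ligands had higher levels in the STING agonist library than in Untreated, though the named subsets, given further on, differed in Cxcl9. The log2 ratios were 0.50 for Cxcl9 (0.39 to 0.62), 0.90 for Cxcl10 (0.73 to 1.07) and 0.39 for Cxcl16 (0.31 to 0.47). With the LTbR agonist they were 0.00, 0.48 and 0.27, and with the combination 0.37, 0.20 and 0.09. Markers of other cells in the dendritic class also differed between libraries, though not all in the order of the ligands. The 8 neutrophil markers summed to 20.01, 735, 117 and 73.8 CPM there, and the 13 macrophage markers to 782, 889, 1158 and 2122 CPM. A dendritic subcluster led by C1qc, a macrophage marker, had 20, 16, 41 and 110 cells and held 130 of 1153, 235 of 1286, 140 of 1141 and 344 of 967 Cxcl9 UMIs. With the Untreated subcluster shares held fixed, the Cxcl9 ratio was 0.32 with the STING agonist and 0.02 with the combination, and without subclusters led by markers of another class 0.47 and 0.15. The part of macrophage or neutrophil RNA in the dendritic ratios was not tested. The CXCR3 ligand values also rested on few cells, since the 10 cells with most UMIs held 30.9% to 50.3% of dendritic Cxcl9 and 48.8% to 68.8% of dendritic Cxcl10. Over the alternatives tried, the STING agonist ratio stayed above 0, at 0.09 to 0.59 for Cxcl9 and 0.22 to 0.95 for Cxcl10, and the LTbR agonist ratio of Cxcl10 ran from 0.20 to 0.93. Without those 10 cells in each library, the combination ratio was 0.73 for Cxcl9 and 0.81 for Cxcl10. With doublets kept it was 0.17 for Cxcl9 and -0.24 for Cxcl10.

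The dendritic subsets carried different members. Mature dendritic cells, which migrate to lymphoid tissue and present antigen, had 811, 897, 863 and 795 CPM of Cxcl16. Their Cxcl9 was 18.6, 22.3, 111 and 88.1 CPM, higher in both libraries that received the LTbR agonist, on 16, 12, 102 and 33 UMIs. Conventional type 1 dendritic cells (cDC1), which cross-present antigen to CD8 T cells, had 188, 192, 120 and 199 CPM of Cxcl9 and at most 21.7 CPM of Cxcl10, with no Cxcl10 UMI in the 52 cells of the STING agonist library. Conventional type 2 dendritic cells (cDC2), which present antigen mainly to CD4 T cells, numbered 61, 46, 106 and 109. Over all cDC2, Cxcl9 was 255, 87.8, 67.3 and 63.2 CPM, lower in every treated library. In Untreated it was the highest of the named dendritic subsets, and the cDC2 subclusters, given below, went opposite ways. The Untreated interval of 215 to 300 CPM did not overlap that of the STING agonist, 61.5 to 121 CPM, and the UMIs came from 7, 5, 10 and 9 cells. Their Cxcl10 was 50.2, 236, 64.7 and 73.0 CPM, highest with the STING agonist, and their Cxcl16 111, 197, 216 and 168 CPM, lowest in Untreated. Cxcl9 with the STING agonist was therefore lower than Untreated in cDC2 as a whole. In cDC1 it was not detectably different, with a log2 ratio of 0.04 (-0.28 to 0.34). The cDC2 subcluster led by Chl1, of 36, 27, 30 and 43 cells, had 407, 157, 28.4 and 52.2 CPM of Cxcl9. The one led by Abca9, of 25, 19, 76 and 66 cells, had 0, 14.996, 81.5 and 68.8 CPM, on 0, 3, 47 and 23 UMIs. The part of these cell numbers in the cDC2 levels was not tested. A dendritic subcluster led by Ifit1, of 231 cells, had 372, 650, 768 and 344 CPM of Cxcl10.

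Cxcr3 was carried by several lymphoid classes. Its level in T cells was 50.1, 62.5, 57.1 and 54.4 CPM, in NK cells 53.2, 51.0, 45.2 and 31.0 CPM and in B cells 33.3, 21.1, 31.4 and 19.7 CPM. The ranges of T and NK cells overlapped, as did those of NK and B cells. Macrophages, the background class for the receptors, had 0.399 to 1.11 CPM. T cells held 54.3%, 44.1%, 52.5% and 51.8% of the Cxcr3 UMIs, and the B cell share was 6.31%, 6.21%, 18.6% and 26.2%. Neutrophils held 1, 12, 0 and 0 Cxcr3 UMIs at median depths of 1832, 2111, 1621 and 1039 UMIs per cell. With the LTbR agonist 0 of 966 cells had one, which allows a share of cells with a UMI of up to 0.311%, and with the combination 0 of 1302 cells, up to 0.230%. These limits do not bound the share of neutrophils that express Cxcr3.

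Some dendritic subsets also carried Cxcr3. Plasmacytoid dendritic cells (pDC), known for type I interferon, had 113, 100, 83.7 and 146 CPM in 15 to 32 cells per library. In cDC1 the level was 46.0, 45.7, 50.3 and 40.4 CPM. Mature dendritic cells had 0 Cxcr3 UMIs in all 4 libraries.

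Cxcr6 was almost confined to T cells, which held 96.2%, 91.0%, 95.3% and 92.8% of its UMIs. Its level in T cells was 385, 263, 270 and 263 CPM, with the Untreated library standing above 3 treated libraries that were close to each other. The log2 ratio was -0.55 with the STING agonist (-0.68 to -0.42), -0.51 with the LTbR agonist (-0.60 to -0.42) and -0.55 with the combination (-0.67 to -0.44). NK cells followed with 33.4, 25.8, 18.4 and 18.8 CPM, and macrophages had at most 1.04 CPM. In T cells thinned to 1000 UMIs, 25.8%, 18.7%, 17.9% and 17.0% had a Cxcr6 UMI, against 0.0430% to 0.209% of thinned macrophages. The unthinned T cell shares were 47.8%, 39.2%, 34.6% and 23.9%. For Cxcr3 the thinned T cell shares were 5.11%, 6.00%, 6.24% and 5.23%, and the unthinned shares 14.6%, 19.3%, 15.5% and 9.18%. Thinning left out 83, 42, 181 and 356 T cells.

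The named T cell subsets differed in the receptor they carried. Effector or exhausted T cells, defined by genes such as Pdcd1, Havcr2 and Prf1, had 683, 539, 707 and 700 CPM of Cxcr6 but 11.3, 13.1, 13.1 and 13.3 CPM of Cxcr3. Gamma-delta or IL-17 T cells had 719, 751, 613 and 547 CPM of Cxcr6. Their subcluster led by Blk had 889, 1087, 815 and 593 CPM. The one led by St6galnac1 and Il17f had 525, 553, 513 and 495 CPM. Naive or memory T cells, which express Tcf7 and Lef1, had 82.9, 99.8, 55.8 and 39.2 CPM of Cxcr3 and 38.2, 44.4, 31.1 and 19.6 CPM of Cxcr6. Their Untreated and STING agonist values rested on 34 and 15 cells. Regulatory T cells had 72.1, 92.1, 63.3 and 49.7 CPM of Cxcr3. Their Cxcr6 was 49.4, 145, 98.3 and 133 CPM, so it was higher in every treated library, opposite to the T class as a whole. The interval of the Untreated value (34.8 to 68.1) did not overlap those of the STING agonist (99.6 to 203), the LTbR agonist (71.7 to 132) or the combination (84.9 to 197). CD4 T cells with a Foxp3 UMI, picked cell by cell without clusters, had 42.8, 163, 136 and 284 CPM of Cxcr6, on 89, 29, 56 and 20 cells.

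The 2 T subclusters with most Cxcr3 UMIs were unnamed. They held 79, 46, 155 and 41 and 62, 46, 72 and 47 UMIs, beside 284, 156, 392 and 184 in the whole T class. The subcluster of 62, 46, 72 and 47 UMIs, led by Slamf6 and Cd40lg, genes of helper or stem-like T cells, carried both receptors and had 192, 138, 124 and 193 CPM of Cxcr3 together with 232, 235, 354 and 267 CPM of Cxcr6. The other, of 879 cells and led by NK receptor genes such as Klra7, had 133, 85.4, 104 and 112 CPM of Cxcr3, and 94.8% of its cells had a Cd3 UMI.

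T cells were also split by coreceptor UMIs, without clusters. CD8 T cells had 519, 309, 373 and 376 CPM of Cxcr6 and 27.6, 50.7, 41.9 and 34.1 CPM of Cxcr3. CD4 T cells without a Foxp3 UMI had 451, 350, 321 and 216 CPM of Cxcr6 and 86.1, 104, 72.9 and 110 CPM of Cxcr3, so both receptors were present in that class.

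The makeup of the T class also differed between libraries. Effector or exhausted cells were 345 of 1393, 77 of 592, 260 of 2055 and 312 of 1655 T cells, or 24.8%, 13.0%, 12.7% and 18.9%. Naive or memory cells were 2.44%, 2.53%, 10.7% and 18.2%. With the Untreated subcluster shares held fixed, the Cxcr6 ratio was -0.22 with the STING agonist, 0.03 with the LTbR agonist and -0.03 with the combination. The Cxcr3 ratios of 0.32, 0.19 and 0.12 became -0.19, -0.22 and -0.09 in the same calculation. The part of any single subset in these ratios was not tested.

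**Figure D4:**
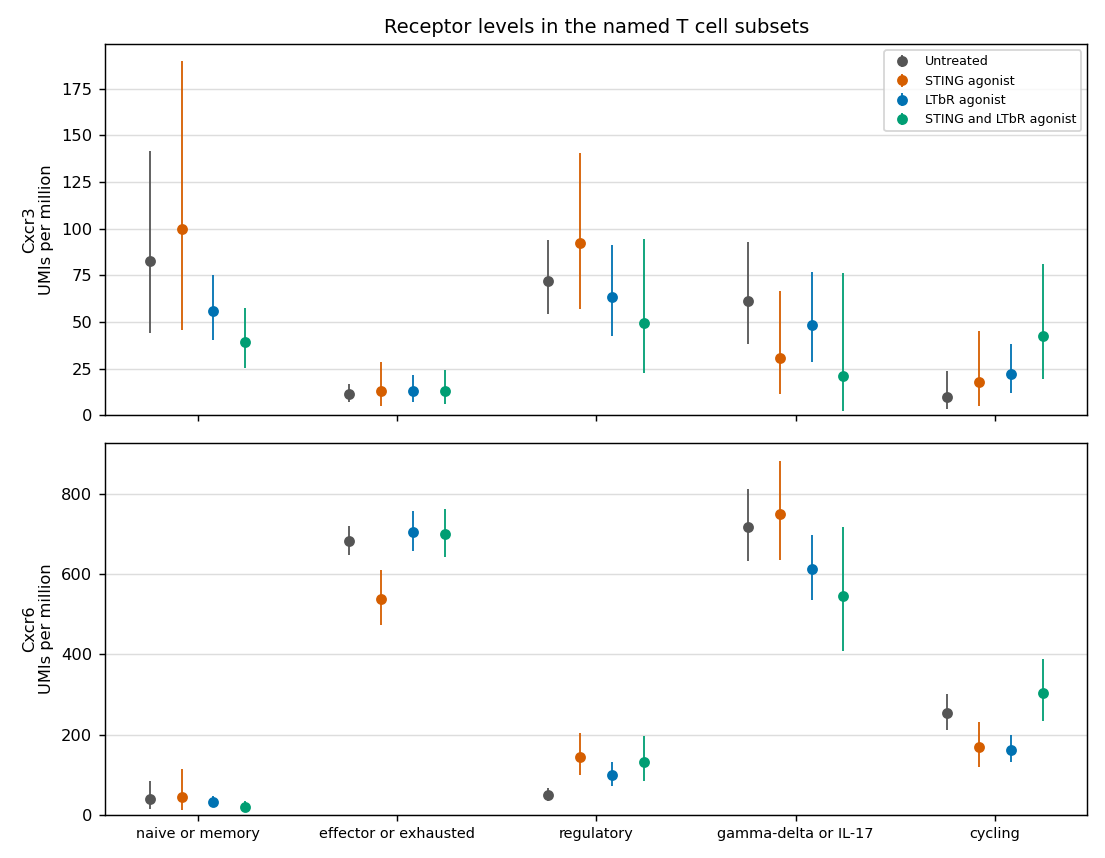
Cxcr3 (top) and Cxcr6 (bottom) in 5 named T cell subsets (CPM, linear axes from 0), with 1 point per library and bars for exact 95% Poisson intervals. Effector or exhausted cells had 539 to 707 CPM of Cxcr6 and 11.3 to 13.3 CPM of Cxcr3, whereas naive or memory cells had 39.2 to 99.8 CPM of Cxcr3.

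Cells with both CXCR3 ligands, or both receptors, were counted after thinning. A Cxcl10 UMI was found in 20.2%, 17.6%, 24.1% and 18.9% of Cxcl9-positive macrophages, against 9.60%, 9.81%, 10.2% and 8.54% of the others. Cxcr6 was found in 11.9%, 12.1%, 19.7% and 11.8% of Cxcr3-positive T cells, against 26.5%, 19.1%, 17.8% and 17.3% of the others, on 8, 4, 23 and 8 cells with both. These shares describe sparse counts from 1 library each.

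The 5 genes were also compared over all leukocytes of each library. Of the 15 ratios of 5 genes in 3 treated libraries, 3 passed 2-fold, and all 3 were lower receptor levels. Among all genes with at least 200 UMIs, 12.8% passed 2-fold with the STING agonist, 2.49% with the LTbR agonist and 3.56% with the combination. Cxcr6 was 52.1, 10.8, 31.7 and 21.4 CPM, with log2 ratios of -2.27 (-2.39 to -2.15), -0.72 (-0.80 to -0.63) and -1.28 (-1.39 to -1.17). Cxcr3 was 12.005, 5.31, 12.2 and 7.94 CPM, with ratios of -1.18 (-1.38 to -0.98), 0.02 (-0.14 to 0.18) and -0.60 (-0.80 to -0.40). The median ratio of all those genes was -0.38, -0.06 and -0.15.

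The receptor ratios over all leukocytes changed when the class shares were held fixed, least for Cxcr3 with the LTbR agonist. With the Untreated class shares held fixed, the Cxcr6 ratios became -0.55, -0.51 and -0.55, and the Cxcr3 ratios 0.04, -0.03 and -0.27. T cells with a Cxcr6 UMI were 9.05%, 1.75%, 5.47% and 2.75% of leukocytes, and T cells with a Cxcr3 UMI 2.76%, 0.862%, 2.44% and 1.06%, at the unequal depths given above. Leaving out neutrophils, the STING agonist ratio of Cxcr6 was -2.01 and that of Cxcr3 -0.96, and 2 of the 15 ratios then passed 2-fold. Cxcl9 over all leukocytes was 522, 407, 365 and 435 CPM, with ratios of -0.36, -0.52 and -0.26 that became -0.33, -0.46 and -0.25 at Untreated class shares. Cxcl16 was 461, 467, 420 and 430 CPM, with ratios of 0.02, -0.13 and -0.10 that became 0.11, -0.05 and -0.05.

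**Figure D5:**
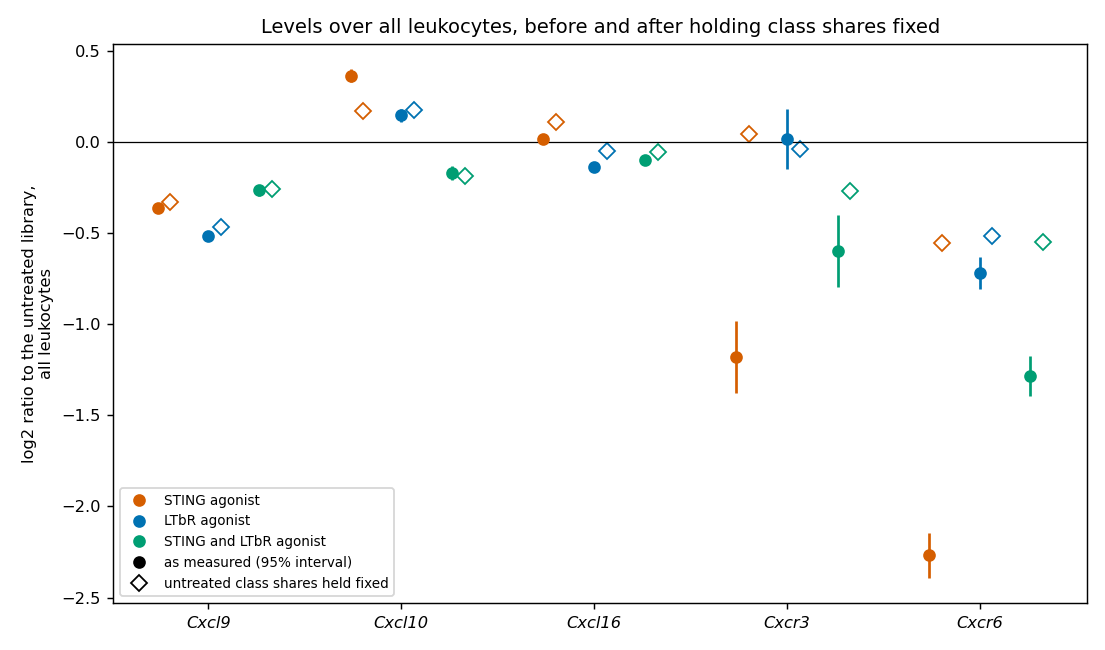
Log2 ratio to the Untreated library over all leukocytes for the 5 genes and 3 treated libraries; filled points are the measured ratios with exact 95% intervals and open diamonds the ratios with the Untreated class shares held fixed. The Cxcr6 ratios of -2.27, -0.72 and -1.28 became -0.55, -0.51 and -0.55.

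Within the class that held most of each gene, none of the 15 ratios passed 2-fold. The share of all genes past 2-fold with the STING agonist, the LTbR agonist and the combination was 4.97%, 1.43% and 1.73% in macrophages, 1.65%, 1.75% and 1.53% in T cells and 1.88%, 1.1% and 2.27% in dendritic cells. A count of 0 of 15 is close to these backgrounds and says nothing particular about the axis. None of the ligand ratios in dendritic cells passed 2-fold either.

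The combination library was also set against each agonist alone. In macrophages Cxcl10 was lower in the combination by both comparisons, with log2 ratios of -0.34 to the STING agonist (-0.38 to -0.30) and -0.40 to the LTbR agonist (-0.44 to -0.36). Cxcl9 was higher, by 0.08 (0.05 to 0.11) and 0.18 (0.15 to 0.21). The Cxcl9 ratio to the STING agonist changed sign with TMM scaling, to -0.03. In T cells the Cxcr6 ratios were -0.0009 (-0.15 to 0.15) and -0.04 (-0.16 to 0.08), and the Cxcr3 ratios -0.20 (-0.51 to 0.12) and -0.07 (-0.33 to 0.19), so no difference in receptor level was detectable at this depth. Over all leukocytes Cxcr6 was higher in the combination than with the STING agonist, by 0.98 (0.84 to 1.13), and lower than with the LTbR agonist, by -0.57 (-0.68 to -0.45).

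The other genes of the pathway were taken from lists, each gene in the class with most of its UMIs. Cxcl11, the third CXCR3 ligand, was 17.2, 20.5, 30.03 and 17.9 CPM in macrophages, with log2 ratios of 0.26, 0.81 and 0.06. None of the 4 genes for ligand and processing passed 2-fold in any comparison, among them Adam10, whose protease sheds CXCL16, and Dpp4, which trims CXCL10. Their median ratio was -0.17, -0.06 and -0.17, beside -0.20, -0.04 and -0.09 for all genes in macrophages, of which 4.97%, 1.43% and 1.73% passed.

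Of 8 inducing cytokines, 6 had enough UMIs, and 1 of them, Tnf, passed 2-fold with the STING agonist. The median of the list was 0.16, -0.21 and -0.13. With the STING agonist 4.97% of all genes passed in macrophages and 1.65% in T cells. Tnf, which acts with interferon-γ on chemokine genes, was 62.8, 236, 80.5 and 67.8 CPM in macrophages, and its log2 ratio with the STING agonist was 1.91 (1.84 to 1.98). Ifng, the main inducer of Cxcl9, was 214, 229, 156 and 190 CPM in T cells. Ifnb1, the gene for interferon-β, was under the limit of 200 UMIs over each pair of libraries, with 20, 101, 44 and 36 UMIs in macrophages.

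None of the 10 interferon signalling genes passed 2-fold, with medians of 0.00, 0.05 and -0.05. Irf1, an early target of interferon, was 139, 189, 176 and 147 CPM in macrophages. Of 12 interferon-stimulated genes 11 had enough UMIs, and 1, Ifit3, passed 2-fold, downward with the STING agonist at 54.4 against 26.4 CPM (-1.04). The median of that list was -0.44, -0.19 and -0.46, beside the all-gene medians of macrophages given above. Of all genes in macrophages 4.97% passed with the STING agonist, 1.43% with the LTbR agonist and 1.73% with the combination.

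Among lymphocyte transcription factors 7 of 8 had enough UMIs and 1 passed 2-fold. Tcf7, a factor of naive and memory T cells, was 179, 290, 351 and 385 CPM in T cells and passed with the combination (1.10, 0.98 to 1.22). Tbx21, the factor that switches on Cxcr3, was 145, 140, 154 and 133 CPM. The median of the list was 0.62, 0.47 and 0.39, and 4 of its members were read in macrophages, where they had most UMIs. Of all genes in T cells 1.65%, 1.75% and 1.53% passed, with medians of -0.06, 0.00 and -0.05, and in macrophages 4.97%, 1.43% and 1.73%, with medians of -0.20, -0.04 and -0.09.

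Among other chemokines Ccl17, Ccl7 and Ccl12 passed 2-fold. Ccl17, a CCR4 ligand of dendritic cells, was 208, 216, 460 and 500 CPM there, with ratios of 1.14 (1.04 to 1.25) and 1.26 (1.15 to 1.38). Ccl7 and Ccl12, monocyte attractants, were lower in combination macrophages, at 449 against 161 CPM (-1.48) and 448 against 212 CPM (-1.08). None of 11 passed with the STING agonist, 1 of 10 with the LTbR agonist and 3 of 10 with the combination, with medians of -0.04, -0.11 and -0.41. Of all genes in macrophages 4.97%, 1.43% and 1.73% passed, with medians of -0.20, -0.04 and -0.09, and in dendritic cells 1.88%, 1.1% and 2.27%, with medians of -0.05, -0.01 and -0.04.

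Among 11 other chemokine receptors, 1 passed 2-fold in each comparison, each downward, of 8, 10 and 8 with enough UMIs, and the medians were -0.15, 0.02 and -0.13. These were Cx3cr1 in macrophages with the STING agonist (-1.21), Ccr8, a receptor of tumour regulatory T cells, in T cells with the LTbR agonist (-1.11) and Ccr9 in dendritic cells with the combination (-1.50). In those classes and comparisons 4.97%, 1.75% and 2.27% of all genes passed. Regulatory T cells, known to carry Ccr8, were 230 of 1393 Untreated and 173 of 2055 LTbR agonist T cells, and pDC, known to carry Ccr9, were 4.94% of Untreated and 1.92% of combination dendritic cells. The part of these shares in the Ccr8 and Ccr9 ratios was not tested. S1pr1, a lipid receptor kept in the same list because it leads T cells out of tissue, was 63.2, 98.2, 123 and 126 CPM in T cells, just inside the limit with the combination at 0.99. Of 7 retention and adhesion genes, Cd44 in macrophages (1.06) and Itgae, an integrin of cDC1, in dendritic cells (-1.20) passed with the STING agonist and none in the other libraries, with medians of -0.09, 0.06 and -0.15. With the STING agonist 4.97% of all genes passed in macrophages and 1.88% in dendritic cells. None of 4 receptor signalling genes passed, with medians of -0.23, -0.10 and -0.14.

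The genes most like each member were found over 24 sums of a class in a library, by Pearson correlation of log2(CPM + 10) among 10550 genes. The sums share libraries and classes, and these values are a description of where genes are expressed. For Cxcl9 they were Psap, Aif1, Lacc1, Ctss and Tcf7l2 (r of 0.97 to 0.98), and for Cxcl10 Oas2, Lpcat2, Tgm2, Prdx5 and Nampt (0.95 to 0.96). Those for Cxcl16 were Zmynd15, Spint1, Cd40, Anpep and Pdlim4 (0.98 to 0.99). Zmynd15 overlaps Cxcl16 in the annotation, as Art3 overlaps Cxcl10 and Fyco1 overlaps Cxcr6, and how the counting used strand was not given in the sources used here. For Cxcr3 they were Eml5, Gramd3, Tmem163, Septin1 and Heg1 (0.95 to 0.97), and for Cxcr6 the T cell genes Cd3e, Cd3g, Lat, Cd6 and Pdcd1 (0.98 to 0.99).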

How the data were processed

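Live CD45+ cells of 4 pooled tumour samples, 1 library per group, were profiled by 5′ single-cell RNA-seq. The deposited matrices hold raw UMI counts per gene and cell, which the authors made with Cell Ranger; the file headers name version 8.0.1, and the submitters' processing notes name 7.1.0 and mm10. The kit is given as GEM-X 5′ v3 in the labels and as an earlier 5′ version in the study's methods. Whether counting used strand is not given in the sources used here.

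Cells with 300 to 5000 genes and at most 6% mitochondrial UMIs were kept, as the study's methods state. Scrublet called 0, 0, 1 and 0 doublets by itself, so few that its automatic threshold was judged not to have worked, and the highest-scoring cells were removed instead, at a rate of 0.4% per 1000 deposited cells (305, 949, 857 and 1066 cells). Deposited cells numbered 8730, 15404, 14634 and 16322. Cells were clustered by Leiden at resolution 1 on 2000 variable genes, 30 components and 20 neighbours, without Cxcl9, Cxcl10, Cxcl16, Cxcr3 and Cxcr6. A cluster was named where at least 3 markers of a class were at least 2-fold higher in it and in at least 10% of its cells. The authors' own cell names were not used, so classes may differ from the study's. The naming thresholds and the rule for subclusters led by markers of another class were chosen after the data were seen.

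UMIs were summed over the cells of a class and divided by all UMIs of those cells (CPM). Intervals are exact 95% Poisson intervals for levels, exact conditional binomial intervals for ratios (0.5 added to each count), and cover counting error only. With 1 library per group no test was made. Both libraries of a comparison together had to hold at least 200 UMIs of a gene for it to be counted as past 2-fold or not. Ratios with shares held fixed weight each class or subcluster level of a treated library by its share of UMIs in the Untreated library. The named genes are the 5 members, the genes of fixed lists past 2-fold, and the 5 genes most like each member; Cxcl11, Adam10, Dpp4, Ifng, Ifnb1, Irf1, Tbx21 and S1pr1 were named after their values were seen. Some listed genes and 1 macrophage subset are not reported here. The members and lists were chosen with earlier results of these data known. Ratios and intervals were checked on simulated Poisson counts drawn from the class sums. That check left out the concentration of UMIs in few cells, so it cannot show how well the intervals cover there. Promoters came from RefSeq GRCm38.p6, with 4 of 5 members matched, and the build of the count files may be newer. Tools were Python 3.11.15, numpy 2.4.6, pandas 2.3.3, scipy 1.17.1, scanpy 1.11.5, leidenalg 0.10.2, igraph 0.11.9, scikit-learn 1.9.0, matplotlib 3.10.9, R 4.3.3, and edgeR 4.0.16 with limma 3.58.1 for TMM factors.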

Additional observations from a re-analysis of the deposited data

Results flagged for a closer look

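The ligand ratios to Untreated had opposite signs in dendritic cells and in macrophages or monocytes, with both 95% counting intervals leaving out 0, in 4 cases, and the difference was not tested. Cxcl9 with the STING agonist was 0.50 in dendritic cells and -0.39 in macrophages, a difference of 0.90 on the log2 scale. Cxcl9 with the combination was 0.37 and -0.31, a difference of 0.69. A subcluster led by the macrophage marker C1qc made up 14.05% of combination dendritic cells against 3.09% in Untreated. Cxcl16 with the LTbR agonist was 0.27 and -0.10, a difference of 0.37, and with the combination 0.09 and -0.09, a difference of 0.18. With the Untreated subcluster shares held fixed, the dendritic and macrophage values became 0.32 and 0.05 for Cxcl9 with the STING agonist, 0.02 and -0.06 for Cxcl9 with the combination, 0.12 and 0.0063 for Cxcl16 with the LTbR agonist, and -0.10 and 0.02 for Cxcl16 with the combination. The signs were then opposite for Cxcl9 with the combination and, turned around, for Cxcl16 with the combination. The 10 dendritic cells with most UMIs held 30.9% to 50.3% of the dendritic Cxcl9 UMIs of a library.

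The class of non-leukocytes, with 158, 213, 201 and 278 cells, entered no comparison and had higher ligand levels than its Untreated cells, beyond counting error, in 6 of the ratios below. Its Cxcl9 level was 33.2, 22.6, 104 and 242 CPM, with log2 ratios of -0.55 for the STING agonist (95% interval -1.27 to 0.14), 1.63 for the LTbR agonist and 2.85 for the combination. Its Cxcl10 level was 19.5, 42.2, 117 and 186 CPM, with log2 ratios of 1.10 for the STING agonist, 2.56 for the LTbR agonist and 3.23 for the combination. Its Cxcl16 level was 24.6, 27.9, 25.9 and 38.3 CPM, with log2 ratios of 0.18 for the STING agonist, 0.07 for the LTbR agonist and 0.63 for the combination. In each library 10 cells held 73.6% to 100% of its Cxcl9 UMIs. Summed C1q genes there were 269, 151, 45.7 and 79.1 CPM, against 4582 to 6978 CPM in macrophages. Of the other leukocyte signals, NK markers, Csf1r and the macrophage markers other than Fn1 were lower in the combination than in Untreated. The others below, and the macrophage sum with Fn1, were higher. Ptprc was 53.5, 48.2, 46.2 and 102 CPM, summed macrophage markers 7852, 7682, 8021 and 10200 CPM, B markers 21.7, 20.3, 66.6 and 158 CPM, dendritic markers 123, 117, 162 and 187 CPM, T markers 2.89, 3.77, 15.96 and 17.04 CPM, and neutrophil markers 13.0, 925, 696 and 164 CPM. NK markers were 255, 302, 184 and 235 CPM. Fn1, which is in the macrophage list, was 6582, 6467, 7335 and 9354 CPM of that macrophage sum. The sum without Fn1 was lower in the combination than in Untreated. Csf1r, also in that list, was 20.9, 14.3, 11.6 and 16.4 CPM. The part of leukocyte RNA in these ligand values was not tested.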

How the results depend on the processing

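Of 525 ratios recomputed under the alternatives, 479 kept their direction and 353 stayed inside the 95% counting interval of the reported value, and the largest shift was 0.72 on the log2 scale. The ratios of level, in CPM, of Cxcr6 and Cxcl10 over all leukocytes and of Cxcl10 in macrophages kept their direction under every alternative run for them. The share of thinned macrophages with a Cxcl10 UMI was 11.1% with the STING agonist against 11.9% in Untreated, opposite to the level. Over all leukocytes the Cxcr6 ratio ran from -2.58 to -2.01 with the STING agonist, from -0.76 to -0.51 with the LTbR agonist and from -1.34 to -1.03 with the combination. The number of the 15 member ratios past 2-fold was 3 over all leukocytes (2 without neutrophils) and 0 within a class under all 10 alternatives.

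Among ratios whose reported 95% interval leaves out 0, 19 recomputed values changed sign, listed next. A further 27 changed sign among ratios whose interval includes 0, among them Cxcr3 in T cells with the LTbR agonist (-0.22) and the combination (-0.09) and Cxcl10 in dendritic cells with the combination (-0.18) at Untreated subcluster shares, and combination to single agonist ratios of both receptors in T cells. For the combination against a single agonist they were these. Over all leukocytes Cxcl9 to the STING agonist was -0.13 without neutrophils, Cxcl16 to the STING agonist 0.15 as a mean over cells, and Cxcl16 to the LTbR agonist -0.022 as a mean over cells and -0.00093 without subclusters led by markers of another class. In macrophages Cxcl9 to the STING agonist was -0.034 with TMM scaling, -0.020 without those subclusters and -0.11 with Untreated subcluster shares. In dendritic cells Cxcl9 to the STING agonist was 0.092 as a mean over cells, 0.33 without the 10 cells with most UMIs, 0.0056 with doublets kept and 0.088 with cells named without clusters. With cells thinned, dendritic Cxcl9 to the LTbR agonist was -0.073 and dendritic Cxcl10 to the STING agonist 0.026.

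Against Untreated, ratios whose interval leaves out 0 changed sign with Untreated subcluster shares, an alternative chosen after the data were seen, for Cxcl9 in macrophages with the STING agonist (0.047), Cxcl16 in macrophages with the LTbR agonist (0.0063) and the combination (0.015), Cxcr3 in T cells with the STING agonist (-0.19), Cxcr6 in T cells with the LTbR agonist (0.030) and Cxcl16 in dendritic cells with the combination (-0.10). Thinning turned the log2 ratio of shares of positive cells for Cxcl10 in LTbR agonist macrophages to 0.064 and for Cxcr3 in combination T cells to 0.033. The cause of these changes was not tested.

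With all genes of at least 1 UMI, genes past 2-fold with the STING agonist, the LTbR agonist and the combination numbered 6776, 5540 and 5770 in leukocytes, against 1506, 297 and 414 with the limit of 200 UMIs. They numbered 5014, 5341 and 5274 in macrophages (519, 150 and 177 with the limit), 4960, 4569 and 3706 in dendritic cells (113, 70 and 133) and 4210, 5226 and 3740 in T cells (102, 133 and 100). The added genes have few UMIs. No paired analysis was possible because each group has 1 library and no test was made, and for the same reason no library could be left out. Cxcr3, with 1979 UMIs in leukocytes, was the member most limited by depth.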

Other observations

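A T cell subcluster led by the interferon-induced gene Ifit3, with 28, 17, 44 and 33 cells in Untreated, STING agonist, LTbR agonist and combination, had 213, 722, 352 and 540 CPM of Cxcl10 and 0 Cxcl9 UMIs in all 4 libraries. In the whole T class Cxcl10 was 37.9 to 49.7 CPM. Leukocytes that the markers could not name, 255, 634, 453 and 488 cells, had 406, 575, 347 and 595 CPM of Cxcl9. B cells had 44.5, 11.5, 16.5 and 44.4 CPM of Cxcl9 together with 2297 to 3031 CPM of summed macrophage markers, and the part of macrophage RNA in these UMIs was not tested.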
